A study of Rattus norvegicus with 8 samples.

Results

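Myelin genes encode the proteins of the insulating membrane that oligodendrocytes in the brain, and Schwann cells in nerves, wrap around axons. The 7 genes described here were chosen by symbol: Mbp, Mobp, Mag, Mog, Cnp, Ermn and Pmp22. All 7 were found, as 12 of the 16932 RefSeq transcripts measured. Mbp had 6 transcripts and each of the others had 1. Mbp (myelin basic protein) and Mobp hold the inner faces of compact myelin together. Mag and Mog are adhesion proteins of the innermost and outermost surface of the sheath. Cnp is a phosphodiesterase of uncompacted myelin, Ermn (ermin, or juxtanodin) is a cytoskeletal protein of mature oligodendrocytes, and Pmp22 is a compact myelin protein of peripheral nerve that fibroblasts and other cells also make. The pineal gland is an endocrine outgrowth of the brain roof that makes melatonin at night. It holds pinealocytes with few other cells, and its sympathetic nerve fibres are mostly without myelin.

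Polyadenylated RNA of pineal glands from Sprague-Dawley rats, kept in 14 h of light and 10 h of dark, was sequenced to follow development and day/night differences. The ages were E21 (embryonic day 21), P5 (postnatal day 5), P20 and P40. Glands were taken at mid-day (zeitgeber time 7) and at mid-night (zeitgeber time 19), and no animal had a treatment or altered gene according to the labels. Each age and time is 1 library from a pool of 13 and 15 animals (E21, mid-day then mid-night), 17 and 19 (P5), 13 and 10 (P20) or 3 and 3 (P40). The values are FPKM, fragments scaled to transcript length and to the mapped fragments of the library, which gives a level per length. Pinealocyte markers were present in every library, with Tph1, the first enzyme of serotonin synthesis, between 330.6 and 2756 FPKM.

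The depth of the libraries differed. By the smallest step between the FPKM of short olfactory receptor transcripts, 1 fragment on a transcript of 1 kb was worth 0.0279 FPKM in the deepest library (P40 mid-night) and 0.0679 FPKM in the shallowest (P20 mid-day). Values of some hundredths of an FPKM thus rest on single fragments. Some transcripts were low for reasons that were not tested. Gapdh, a glycolytic enzyme gene that every cell uses, did not pass 0.524 FPKM. The endothelial gene Cldn5 was listed at 0 in all 8 libraries. A value of 0 is therefore given only as listed. With 1 library per age and time, p-values measure the spread between pooled libraries, with the other time of day in place of a replicate of each age.

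The members were spread over a wide range of levels. In order of their mean over the 8 libraries they were Pmp22 (11.6 FPKM), Cnp (6.47), Mbp summed over its transcripts (3.78), Ermn (0.859), Mog (0.714), Mag (0.128) and Mobp (0.0773). The ranges of neighbours in this order overlapped in every case: Cnp, for example, lay between 2.35 and 9.76 FPKM and Pmp22 between 5.40 and 18.1 FPKM. The transcripts lie, in the coordinates of build rn4 as deposited, at chr10:49305834-49335864 (Pmp22), chr10:89519420-89525978 (Cnp), chr3:39822599-39828256 (Ermn), chr20:1601730-1611963 (Mog), chr1:85954510-85970832 (Mag) and chr8:125118617-125144098 (Mobp). Of the Mbp transcripts, 5 lie at chr18:79025588-79057329. The sixth begins 81981 bases upstream (chr18:78943607-79026500), at the start known for the golli transcripts, which are also made by neurons and immune cells.

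**Figure D1:**
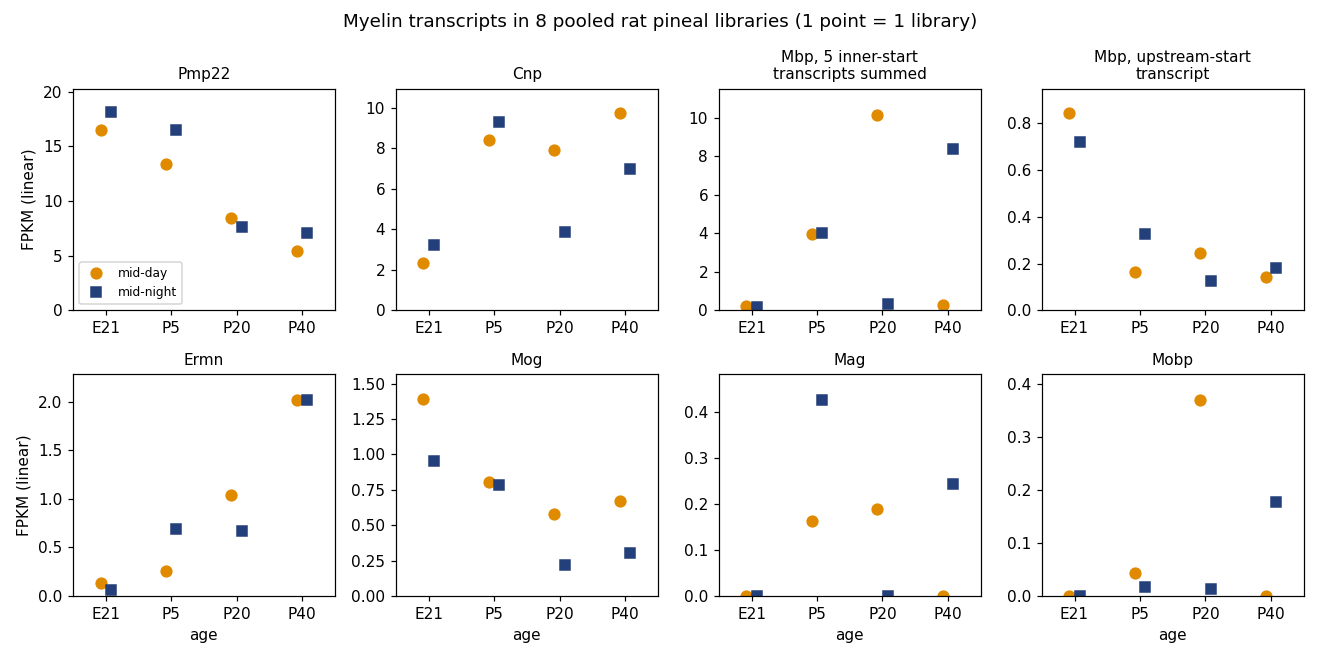
FPKM (linear axis from 0, a different scale in each panel) of each myelin gene by age, with 1 point per pooled library (circles mid-day, squares mid-night); Mbp is drawn as the sum of its 5 inner-start transcripts and as its upstream-start transcript. Pmp22 is lower and Ermn higher at the later ages, while inner-start Mbp is high in the P20 mid-day (10.2 FPKM) and P40 mid-night (8.37 FPKM) libraries and at 0.319 FPKM or under in their partners.

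Promoter sequence was matched by symbol in RefSeq (build GRCr8) for 5 of the 7 genes. Shown are the 250 bases before the start, 5′ to 3′ on the strand of the gene, for Mobp and Mag, which were high in the same P20 and P40 libraries, and for Cnp and Pmp22, which changed with age in opposite directions. Capitals mark matches, on either strand, to ACAAAG. This word, like ACAATG, is a form of the motif bound by SOX factors such as Sox10, a regulator of myelin genes. The E-box word CAGCTG is in capitals too, as would be any match to the second form.
Mobp (chr8:128746982-128747231, plus strand): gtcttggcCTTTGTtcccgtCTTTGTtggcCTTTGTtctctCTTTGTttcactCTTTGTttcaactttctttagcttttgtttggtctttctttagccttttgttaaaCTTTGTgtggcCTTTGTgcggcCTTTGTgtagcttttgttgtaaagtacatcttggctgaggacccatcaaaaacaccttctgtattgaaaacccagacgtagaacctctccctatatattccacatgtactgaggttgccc
Mag (chr1:95291045-95291294, minus strand): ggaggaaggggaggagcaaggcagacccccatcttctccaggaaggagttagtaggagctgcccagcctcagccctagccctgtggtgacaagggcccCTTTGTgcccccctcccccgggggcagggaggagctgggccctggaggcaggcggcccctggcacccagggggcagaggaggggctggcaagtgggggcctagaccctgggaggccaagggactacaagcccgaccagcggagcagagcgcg
Cnp (chr10:86011254-86011503, plus strand): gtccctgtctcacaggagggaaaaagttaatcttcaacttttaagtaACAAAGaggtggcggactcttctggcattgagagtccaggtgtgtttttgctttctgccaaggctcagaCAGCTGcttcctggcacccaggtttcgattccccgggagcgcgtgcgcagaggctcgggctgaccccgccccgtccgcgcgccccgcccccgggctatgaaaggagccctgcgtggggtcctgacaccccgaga
Pmp22 (chr10:48294682-48294931, plus strand): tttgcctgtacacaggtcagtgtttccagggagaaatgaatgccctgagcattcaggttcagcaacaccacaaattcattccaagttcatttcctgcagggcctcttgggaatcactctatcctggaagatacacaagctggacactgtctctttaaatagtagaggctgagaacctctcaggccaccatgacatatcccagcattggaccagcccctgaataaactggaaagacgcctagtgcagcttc
The Mobp window held 8 matches to ACAAAG, in a stretch of repeated short words. Mag and Cnp held 1 each, and Cnp also 1 CAGCTG. Pmp22 held none of the 3 words. Among all 33469 RefSeq promoter windows of this length, 16.3% held ACAAAG, 11.1% ACAATG and 12% CAGCTG. Mbp has 2 annotated starts in this table, 79593 bases apart on chromosome 18. The window of the upstream start (chr18:78130402-78130651) held none of the words, and that of the second start (chr18:78209995-78210244) held 1 match to the first SOX-type word, 2 to the second and 1 to the E-box. The TATA word TATAAA was found in none of the 6 windows, against 12.9% of all. Cnp had 16 CpG pairs and Pmp22 had 1, beside a median of 5 over all windows. These matches describe letters only, and factor binding was not measured.

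Between E21 and P40, 3 of the members changed: Cnp and Ermn rose and Pmp22 fell. Pmp22 stood at 16.5 and 18.1 FPKM (E21, mid-day then mid-night), 13.4 and 16.5 (P5), 8.45 and 7.66 (P20) and 5.40 and 7.11 (P40). Both libraries of P20 and of P40 were below all 4 libraries of E21 and P5. The mean at E21 was 2.77 times that at P40, and the difference on the log2(FPKM + 1) scale was -1.34 ± 0.18 (SE; limma, adjusted p = 0.00107; 0.000702 to 0.0146 over 18 alternatives). Cnp stood at 2.35 and 3.21 FPKM (E21, mid-day then mid-night), 8.41 and 9.28 (P5), 7.93 and 3.85 (P20) and 9.76 and 6.95 (P40). All later libraries were above both of E21, and the P20 mid-night library was the closest to them. Cnp rose by 1.3 ± 0.29 (SE; limma, adjusted p = 0.00962), from a mean of 2.78 to 8.35 FPKM. This call was lost without the E21 mid-day library (adjusted p = 0.0675), without P40 mid-day (0.0674) and with no filter on low values (0.0881), among alternatives from 0.0038 to 0.0881.

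Ermn, the cytoskeletal gene of mature oligodendrocytes, had the larger relative gain of the 2 that rose. It stood at 0.130 and 0.0582 FPKM (E21, mid-day then mid-night), 0.257 and 0.694 (P5), 1.03 and 0.667 (P20) and 2.02 and 2.02 (P40). Both P40 libraries were above all others and both E21 libraries below all others. The ratio of the means of P40 and E21 was 21.4, but the E21 values rest on few fragments. On the log2(FPKM + 1) scale, which understates changes of such low values, the difference was 1.46 ± 0.21 (SE; limma, adjusted p = 0.00141; 0.000654 to 0.0231 over 17 alternatives).

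Of the 12 member transcripts, 5 had at least 1 FPKM in at least 2 libraries and were tested (those of Cnp, Ermn and Pmp22, and 2 of Mbp), and 7 were not. Over all 9960 transcripts tested, 42.9% changed between E21 and P40, 16.1% upward and 26.8% downward, so that 2 up and 1 down among 5 members is not apart from the background. All transcripts tested had a median difference of -0.18. When each library was centred on its median, Pmp22 was at -1.15, Cnp at 1.49 and Ermn at 1.66, with the same calls. The F test over all ages called the same 3 members (limma, adjusted p = 0.00283 for Pmp22, 0.00617 for Ermn and 0.0214 for Cnp), beside 36.4% of all transcripts. In bulk RNA, fewer cells of a type and less RNA per cell cannot be told apart.

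**Figure D2:**
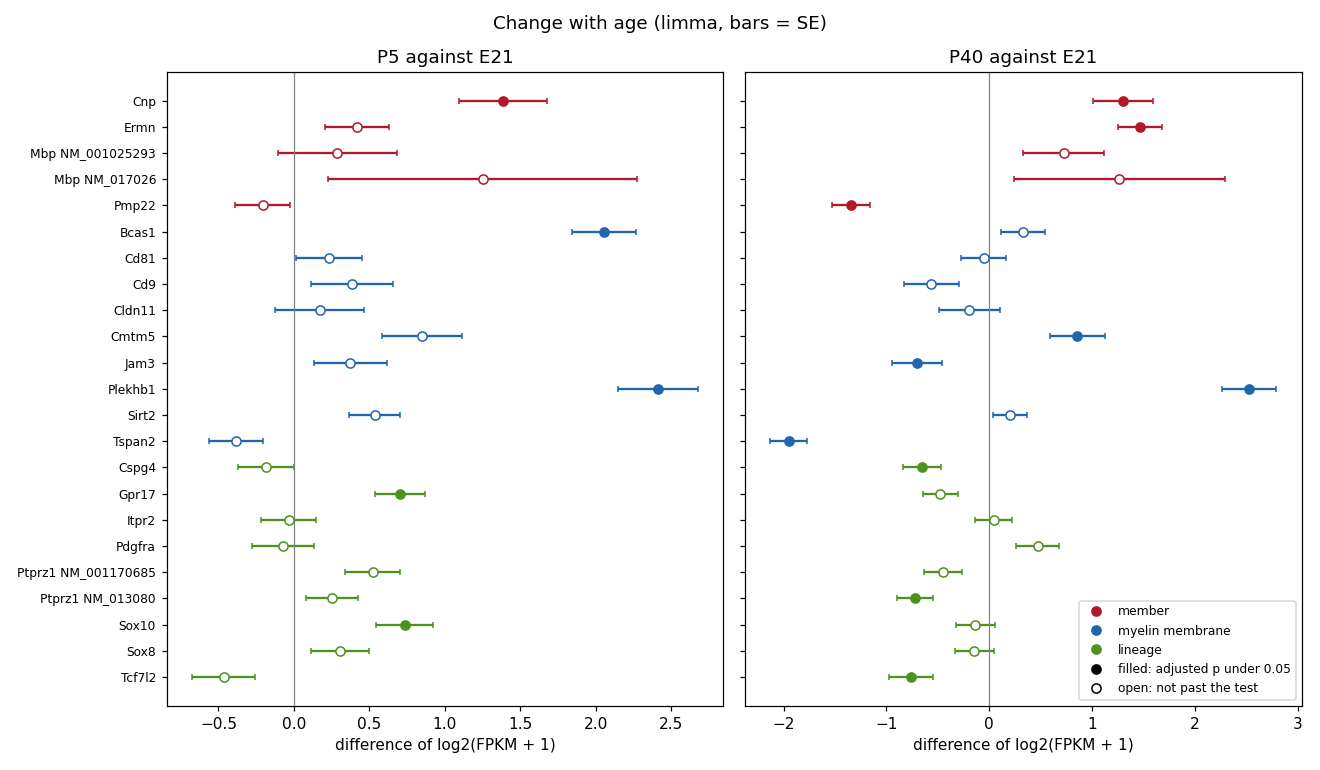
Difference of log2(FPKM + 1) for P5 against E21 (left) and P40 against E21 (right) of the tested members (red), 9 of the 11 other myelin membrane transcripts tested (blue) and oligodendrocyte lineage transcripts (green); bars are SE of the limma fit, and filled points passed an adjusted p under 0.05. Among members, Cnp passes in both panels (1.39 and 1.3), and Ermn (1.46) and Pmp22 (-1.34) in the right panel.

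The steps between ages placed these changes at different times. Cnp rose between E21 and P5, by 1.39 ± 0.29 (SE; limma, adjusted p = 0.0185), and was the 1 member called among the 5 tested, where 8.29% of all transcripts rose. Without E21 mid-day, P5 mid-day or P5 mid-night its adjusted p was 0.118, 0.0733 and 0.128, and with no filter 0.141; over 17 alternatives the range was 0.01 to 0.141. Pmp22 fell between P5 and P20, by 0.81 ± 0.18 (SE; limma, adjusted p = 0.0396), where 5.99% of all transcripts fell. This call is weak: 7 of 17 alternatives kept it, and its adjusted p ran from 0.0334 to 0.3. It was lost without P5 mid-day (0.111), P5 mid-night (0.3), P20 mid-day (0.0673), P20 mid-night (0.247), P40 mid-day (0.065) or P40 mid-night (0.0641), and after either scaling (0.0577 and 0.0777). Ermn did not pass at any single step, with differences of 0.42, 0.34 and 0.71. For the step from P20 to P40, limma called 0 transcripts (0%), with 669 at an unadjusted p under 0.05. Ermn was the 1 member among those (limma, unadjusted p = 0.0103, adjusted p = 0.483).

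Mbp differed more between the libraries of P20, and between those of P40, than between these ages. Its 5 inner-start transcripts, which encode the classic myelin basic proteins, overlap and share reads, so their sum is the firmer value. The sum was 0.238 and 0.179 FPKM (E21, mid-day then mid-night), 3.94 and 4.04 (P5), 10.2 and 0.319 (P20) and 0.250 and 8.37 (P40). The P20 mid-day library was 31.9 times its mid-night partner, and the P40 mid-night library was 33.4 times its mid-day partner. The 2 ages thus differed between libraries in opposite directions, and the low libraries of P20 and P40 were near those of E21. The split of the sum between the 5 transcripts was uneven: NM_017026 carried 72.5% of it at P5 mid-day, 18.2% at P5 mid-night, 52.4% at P20 mid-day and 69.4% at P40 mid-night.

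No test called Mbp. For NM_017026 the difference between P40 and E21 was 1.27 ± 1.02 (SE; limma, adjusted p = 0.347). The value rests on which library stands for P40: without P40 mid-day it was 3.24 (adjusted p = 0.0166), and without P40 mid-night -0.71 (adjusted p = 0.513). The second tested transcript, NM_001025293, was at 0.72 ± 0.40 (SE; limma, adjusted p = 0.176), and at an adjusted p of 0.0469 without P20 mid-night. With all 6 transcripts of Mbp summed the difference was 0.88 ± 1.02 (SE; limma, adjusted p = 0.512).

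The upstream-start transcript of Mbp had another course. It stood at 0.842 and 0.720 FPKM (E21, mid-day then mid-night), 0.162 and 0.327 (P5), 0.244 and 0.125 (P20) and 0.143 and 0.181 (P40), under the level needed for the test. Both E21 libraries were above all 6 later ones. With no filter on low values its difference between P40 and E21 was -0.62 ± 0.10 (SE; limma, adjusted p = 0.0306). Its share of all Mbp FPKM was 78.0% and 80.1% at E21 and between 2.12% and 36.3% later, highest in the later libraries where inner-start Mbp was low.

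Mag and Mobp were low and were high in the same libraries as inner-start Mbp at P20 and P40. Mobp stood at 0.369 FPKM at P20 mid-day and 0.177 at P40 mid-night, at 0.0129 at P20 mid-night, and was listed at 0 at P40 mid-day. At P5 it was at 0.0428 and 0.0165 FPKM and at E21 it was listed at 0 in both libraries. Mag stood at 0.188 FPKM at P20 mid-day and 0.243 at P40 mid-night, and was listed at 0 in their partners and in both E21 libraries. At P5 it was at 0.162 and 0.426 FPKM, the second of which was its highest value. These levels were too low for the test, and their fold changes are not given against values of 0.

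The same order of libraries, P20 mid-day above P20 mid-night together with P40 mid-night above P40 mid-day, held for 8 of the 12 member transcripts. It held for 21.8% of the 13404 transcripts above 0 in any of these libraries. With at least 2-fold in both ages it held for 6 of 12, beside 2.04% of all. The 6 were 4 inner-start Mbp transcripts, which share reads, and those of Mag and Mobp. The 2.04% covers transcripts of every level, while Mag and Mobp did not pass 0.426 and 0.369 FPKM. A 2-fold gap is reached more easily at such low values, and no share for transcripts of like level was made. Cnp, Ermn, Mog and 1 Mbp transcript were not among the 8. This order was noticed in these values and is a description without a test, since each library is the only one of its age and time.

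**Figure D3:**
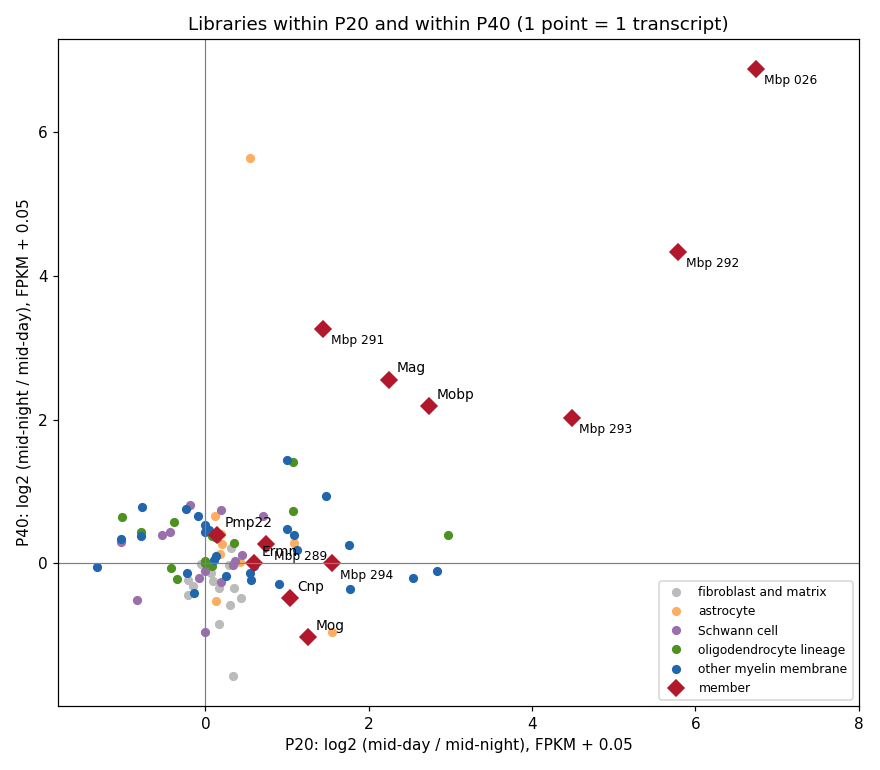
Log2 ratio of the mid-day to the mid-night library at P20 (x axis) against the log2 ratio of mid-night to mid-day at P40 (y axis), after adding 0.05 FPKM; each point is 1 transcript and there is 1 library for each age and time. Mag, Mobp and 4 Mbp transcripts (labelled by the last digits of their RefSeq number) lie far to the upper right, while most transcripts of the other lists lie near 0.

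Among the other lists, 9 of 27 other myelin membrane transcripts had this order (2 by 2-fold in both ages), 7 of 22 myelin lipid and metabolism transcripts (1), 5 of 12 lineage transcripts (3) and 6 of 16 Schwann cell transcripts (0). Of 2 picked after their values were seen, Opalin, a protein of mature oligodendrocytes, was at 0.0503 FPKM at P20 mid-day and 0.0851 at P40 mid-night and listed at 0 in the other 6 libraries. Ugt8, which makes the galactolipids of myelin, was at 0.184 and 0.0295 at P20 and 0.0574 and 0.301 at P40. Of the 10 astrocyte transcripts 8 had the same order, none by 2-fold in both ages, and their summed level was 231 and 190 FPKM at P20 and 193 and 219 at P40. Of 9 choroid plexus and 14 matrix transcripts, 0 and 1 had it. Of 16 transcripts of habenula and other brain neurons, 6 had it, 2 by 2-fold in both ages. One of these, Camk2a, picked after its values were seen, was at 0.280 and 0 FPKM at P20 and at 0.0289 and 0.184 at P40, while Gad2, of inhibitory neurons, was listed at 0 in both P20 libraries and was at 0.543 and 0.0881 at P40. Whether tissue next to the gland contributed to these libraries was not tested.

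Mog, an adhesion protein of the sheath surface, ran the other way with age. It stood at 1.39 and 0.950 FPKM (E21, mid-day then mid-night), 0.809 and 0.784 (P5), 0.582 and 0.215 (P20) and 0.672 and 0.304 (P40). Both E21 libraries were above all later ones, but only 1 library reached 1 FPKM, so Mog was not tested. With no filter on low values its difference between P40 and E21 was -0.55 ± 0.11 (SE; limma, adjusted p = 0.0492). Its locus of 10234 bases overlaps that of Zfp57, a zinc finger gene of imprinting, by 95 bases in the deposited coordinates. No source used here states that strand was used in counting. Zfp57 stood at 3.21 and 2.79 FPKM (E21, mid-day then mid-night), 1.91 and 1.69 (P5), 0.874 and 0.709 (P20) and 0.651 and 0.450 (P40). Its part in the Mog values was not tested.

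Over the 4 ages no member differed between mid-night and mid-day (limma, 0 of 5; 0 at an unadjusted p under 0.05), and neither did any other transcript (0% of 9960; 1011 at an unadjusted p under 0.05). At P20 and P40 together, Cnp was lower at mid-night, by 0.66 ± 0.18 on the log2 scale (SE; limma, unadjusted p = 0.00697, adjusted p = 0.0899), which did not pass, where 4.39% of all transcripts were called, 2.8% higher and 1.59% lower. Its night effect at P20 and P40 differed from that at E21 and P5 by -0.89 ± 0.26 (SE; limma, adjusted p = 0.212, beside 0.753% of all transcripts called). With 1 of the 4 late libraries left out, the night effect at P20 and P40 rests on the pair of the other age alone, 1 library against 1. For the Mbp transcript NM_017026 it then had opposite signs. It was 2.77 without P20 mid-day or P20 mid-night (the P40 pair) and -2.66 without P40 mid-day or P40 mid-night (the P20 pair). At single ages, the tested members at least 1 apart on the log2(FPKM + 1) scale were NM_017026 of Mbp at P5, P20 and P40 and NM_001025293 at P20. Of all transcripts 2.03% were that far apart at E21, 1.85% at P5, 5.16% at P20 and 4.38% at P40.

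Several genes of the oligodendrocyte lineage were highest at P5, while others of the list were not. Choroid plexus transcripts were highest there too: 8 of 9 rose from E21 to P5 and 9 of 9 fell from P5 to P20, and their part in the values of the lineage genes and of Bcas1 was not tested. Sox10, the transcription factor of myelinating glia, rose between E21 and P5 by 0.73 ± 0.19 (SE; limma, adjusted p = 0.0373) and fell between P5 and P20 by 0.89 ± 0.19 (adjusted p = 0.0311), with 1.59 and 1.72 FPKM at P5. Gpr17, a receptor of cells about to myelinate, rose by 0.70 ± 0.17 and fell by 1.16 ± 0.17, and was at most at 0.0519 FPKM in the P20 and P40 libraries. Olig2, which specifies the lineage, was too low to be tested, at 0.476 and 0.801 FPKM at P5 and at most 0.113 in any other library. Nkx2-2, another early factor of the lineage, was at 0.383 and 0.219 FPKM at P5 and listed at 0 in all 4 later libraries. Both Olig2 and Nkx2-2 were picked after their values were seen. Of the 9 lineage transcripts tested 2 rose from E21 to P5 (15.1% of all transcripts changed, 8.29% upward and 6.84% downward) and 4 fell from P5 to P20 (7.02% changed, 5.99% downward and 1.02% upward), the other falls being both transcripts of Ptprz1. Between E21 and P40 none rose and 3 fell (Tcf7l2, Cspg4 and the Ptprz1 transcript NM_013080), with a median of -0.45 beside -0.18 for all transcripts. The other Ptprz1 transcript did not pass (limma, adjusted p = 0.0849). Pdgfra, the most abundant of the list at up to 13.2 FPKM, did not pass, and its mean was lowest at P5 (8.93 FPKM). It also marks fibroblasts. The means of Tcf7l2 and Cspg4 were highest at E21, at 4.18 and 1.19 FPKM, beside 2.83 and 0.909 at P5.

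The other myelin membrane genes also differed among themselves. Of 11 transcripts tested, 3 rose between E21 and P5, where 8.29% of all transcripts rose. Among the 3 were Plekhb1, by 2.41 ± 0.26, and Bcas1, a marker of cells that begin to myelinate, by 2.05 ± 0.21 (SE; limma, adjusted p = 0.00177 and 0.00139). Plekhb1, which photoreceptors also express, stayed high, at 338 to 433 FPKM from P5 on. Bcas1 was at 3.82 and 5.09 FPKM at P5 and at most at 0.825 in any other library, and fell again from P5 to P20 by 1.85 ± 0.21. Jam3, an adhesion gene of many cell types, and Tspan2, a tetraspanin of oligodendrocytes, fell in that step too, and Tspan2 was 1.95 lower at P40 than at E21. Between E21 and P40, 2 of the 11 rose (Plekhb1 and Cmtm5) and 2 fell (Tspan2 and Jam3), with a median of 0.13. Over all transcripts 16.1% rose and 26.8% fell. Cldn11, the tight junction protein of myelin, lay between 11.7 and 21.3 FPKM in all libraries without passing.

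**Figure D4:**
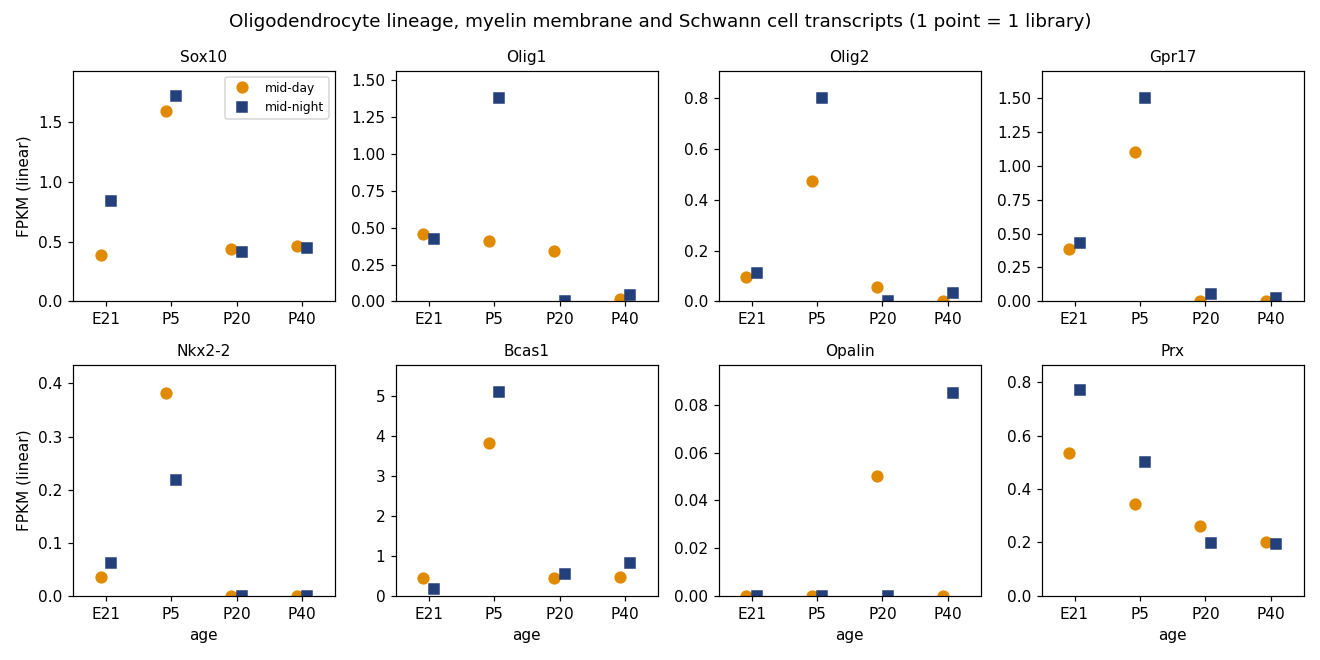
FPKM (linear axis from 0, a different scale in each panel) by age of 5 oligodendrocyte lineage transcripts, 2 myelin membrane transcripts (Bcas1 and Opalin) and the Schwann cell transcript Prx, with 1 point per pooled library; these genes were picked after their values were seen. Sox10, Olig2, Gpr17, Nkx2-2 and Bcas1 are highest at P5, Opalin is above 0 in the P20 mid-day and P40 mid-night libraries only, and Prx stays at or under 0.770 FPKM.

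Of 16 transcripts of the Schwann cell list, 5 or 6 were at or above 1 FPKM in each library. The summed level of the list went from 24.2 and 21.8 FPKM at E21 to 34.6 and 41.2 at P40. S100b alone carried this rise, from 3.42 and 1.33 FPKM at E21 to 18.5 and 23.8 at P40, and the rest of the list did not rise as a sum. Of 2 picked after their values were seen, Prx, a scaffold protein of peripheral myelin, lay between 0.195 and 0.770 FPKM, and Egr2, a regulator of myelinating Schwann cells, was at most at 0.177. Of the 7 Schwann list transcripts tested, 3 rose between E21 and P40 and 2 fell, with a median of 0.30, beside 16.1% up and 26.8% down over all transcripts. S100b (2.78 ± 0.28), Scn7a (2.36 ± 0.18) and Cdh19 (1.81 ± 0.21) rose, of which S100b also marks astrocytes. The adhesion genes L1cam (-2.53 ± 0.20) and Cadm4 (-1.26 ± 0.18) fell.

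The 4 transcripts most like Pmp22 over the 8 libraries, by Pearson's r of log2(FPKM + 1), were Ppic (0.995), Ptk7 (0.992), Tmem164 (0.992) and Fstl1 (0.991); these are the highest of all transcripts compared and describe likeness only. Fstl1, a secreted matrix-associated protein, went from 140 and 154 FPKM at E21 to 58.2 and 63.3 at P40. Of 14 fibroblast and matrix transcripts tested 13 fell between E21 and P40, where 26.8% of all transcripts fell. The median of the list was -2.69, and its summed level was 1358 and 1831 FPKM at E21 and 329 and 266 at P40. That list was lower already at P5 (4 of 14 fell beside 6.84% of all transcripts, median -0.75), where Pmp22 did not pass (-0.21 ± 0.18; SE; limma, adjusted p = 0.481). Endothelial transcripts fell in 5 of 6 cases between E21 and P40, with a median of -1.24. Their part in the Pmp22 values was not tested.

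Cnp and Ermn had other neighbours. Most like Cnp were Actr10 (0.986), Aldh18a1 (0.976), Mpi (0.973) and LOC686506 (0.972), and most like Ermn were Ppt1 (0.991), a lysosomal enzyme, Ly6e (0.986), Pam (0.985) and Ntrk2 (0.978), the receptor of the growth factor BDNF. For the Mbp transcript NM_017026 they included Polr3k (0.954), Cops7a (0.889) and Ndufv2 (0.888), and for NM_001025293 Lrrc68 (0.952), RGD1307615 (0.948), Inpp5k (0.931) and Cabp1 (0.930). No gene of the myelin, lineage or Schwann cell lists was among these 20. Cabp1, a calcium-binding protein gene, was at 6.77 and 0 FPKM at P20 and at 1.52 and 8.18 at P40.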

How the data were processed

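Total RNA was extracted, enriched for polyadenylated RNA and sequenced as paired ends in 8 pooled libraries, 1 for each age and time. Per the submitters' processing notes, reads were processed by the authors on build rn4 with TopHat (version 1.3.1) and with Cufflinks (version 1.2.0), and they deposited 1 FPKM value per RefSeq transcript; filters, strand settings and further scaling are not given in the sources used here. The 8 per-sample files equalled the series table. Counts were not used here.

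Values were analysed as log2(FPKM + 1). The 9960 transcripts that reached 1 FPKM in 2 or more libraries went into limma 3.58.1 (R 4.3.3; moderated two-sided tests with a mean-variance trend; adjustment by Benjamini and Hochberg over all of them, threshold 0.05). The terms were age and time of day; a second fit had 1 night effect for the 2 early ages and another for the 2 late ages. The first fit left 3 residual degrees of freedom. The first fit was tried on simulated data for P40 against E21 alone, with the same spread for every transcript. Single ages have 1 library per time, so no test was made there. Leaving out a P20 or P40 library leaves 1 pair behind the late night effect, so calls of that effect then compare 1 library with 1.

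The members and the 12 gene lists were chosen with earlier results of these data known. Every member is named; from the lists, those past the test of highest mean FPKM and the most abundant. For each tested member the 4 transcripts most like it with at least 5 FPKM in 2 libraries are given. Nkx2-2, Olig2, Opalin, Ugt8, Camk2a, Gad2, Egr2, Prx, Olig1, Cldn11, Zfp57, Nrg1, Elovl7, Car2, Gapdh and Cldn5 were added after their values were seen. Some genes that this choice names are not reported here. Alternatives were other pseudocounts (0.1 and 5), filters, scalings, robust eBayes, age alone, FPKM summed per gene symbol and each library left out; leaving out both P5 libraries was added after seeing the data.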

Additional observations from a re-analysis of the deposited data

How the results depend on the processing

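Pmp22 and Ermn kept their direction and call for P40 against E21 under every alternative run, which covered 18 settings for Pmp22 and 17 for Ermn, since the filter at 5 FPKM removed Ermn. Calls of Cnp and of Pmp22 at single steps were lost under the settings given beside them. Only the Mbp transcript NM_017026 reversed, to -0.71 without P40 mid-night (3.24 without P40 mid-day).

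With no filter, the members called by the age F test numbered 1 in place of 3, and 0 in place of 1 for P5 against E21 and for P20 against P5. For P40 against E21 they numbered 4 in place of 3: Cnp was lost, and Mog and the upstream-start Mbp transcript, which are untested otherwise, were called. The call for P20 against P5 was also lost (0) at a pseudocount of 5, after quantile normalization and after median centring. Over all transcripts, the age F test called 1454 with no filter and 2322 at a filter of 5 FPKM, where fewer transcripts are tested, in place of 3629. P5 against E21 called 380 with no filter in place of 1507. P20 against P5 called 397 at a pseudocount of 5, 10 with no filter and 372 at a filter of 5 FPKM in place of 699. P40 against E21 called 2838 at a filter of 5 FPKM in place of 4276. P40 against P20 called 1 at a pseudocount of 0.1 and 1 with no filter. Night at P20 and P40 called 0 with no filter in place of 437. The cause of these shifts was not tested.

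Leaving out each library in turn gave 2277 to 3349 transcripts for the age F test, with 2 to 3 members. It gave 436 to 1439 for P5 against E21 (members 0 to 1), 35 to 753 for P20 against P5 (0 to 1), 0 to 1 for P40 against P20 (0 members), 2323 to 4250 for P40 against E21 (2 to 4 members) and 166 to 363 for night at P20 and P40 (0 to 1 members, NM_017026 of Mbp in each case).

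No paired analysis was possible because no replicate numbers exist: every combination of age and time is a single pool. Depth limits values of some hundredths of an FPKM, as for Mobp at P5 and Ermn at E21 mid-night.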

Other observations

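Of 19 transcripts tested of the myelin lipid and metabolism list, not all of them lipid genes, 4 rose and 4 fell between E21 and P40. Their median was -0.23, and these counts are near the shares over all transcripts (16.1% up and 26.8% down). Enpp2, a lysophospholipase D, rose by 1.65 ± 0.34 (SE, limma, adjusted p = 0.00689). Pcyt2, of phosphatidylethanolamine synthesis, rose by 1.46 ± 0.24 (SE, limma, adjusted p = 0.00265). The small heat shock gene Cryab rose by 1.26 ± 0.27 (SE, limma, adjusted p = 0.00825). Adi1 rose by 0.80. Among those that fell, the glycolipid carrier Gltp fell by 0.91 and Fdft1, of squalene synthesis, by 0.74. Enpp2 was highest at P5, at 129 and 497 FPKM, and choroid plexus epithelium also expresses it. The summed level of 9 choroid plexus transcripts was 3024 and 17808 FPKM at P5 and at most 1378 in any other library. Of this sum, Ttr alone gave 2889 and 17323 FPKM at P5, mid-day then mid-night. Car2 and Elovl7, also of the lipid and metabolism list, were highest at P5 mid-night too, at 42.0 and 14.4 FPKM. The part of choroid plexus epithelium in these values was not tested.

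Ligands and receptors between axon and glia were also near those shares. Of 16 tested between E21 and P40, 3 rose (the adhesion gene Cadm3, the heavy neurofilament gene Nefh and the neuregulin gene Nrg2) and 5 fell, among them Cadm1, Gap43 of growing axons, Cadm2 and the middle neurofilament gene Nefm, with a median of 0.04. Rtn4, the source of the axon growth inhibitor Nogo and the most abundant of them, lay between 40.9 and 57.7 FPKM. Nrg1, the axonal signal of Schwann cell myelination, was at most at 0.684 FPKM.

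Lists of other cells serve as background to the members. Over all transcripts tested, 16.1% rose from E21 to P40 and 26.8% fell. Between E21 and P40, astrocyte transcripts parted: 4 of 10 rose and 4 fell, among the latter Vim and Gja1. Among those that rose were transcript NM_012825 of the water channel gene Aqp4, by 2.31 ± 0.24, and Gfap, by 1.84 ± 0.30. The other Aqp4 transcript did not pass (0.83 ± 0.45, limma, adjusted p = 0.17). Slc1a2 had a transcript on each side (0.69 and -1.23). Microglia and macrophage transcripts parted too (4 of 10 rose and 2 fell). Of 7 transcripts tested of the neuronal list 5 rose (Syt1, Snap25, Slc17a7, Chrna3 and Chrnb4) and 1 fell (Tac1). Camk2a, Gad1, Gad2, Nrgn, Neurod6 and Gpr151 of that list stayed under 1 FPKM and were not tested. Whether neurons or pinealocytes made the transcripts that rose was not tested. Of 9 pinealocyte transcripts 5 rose. Of 9 choroid plexus transcripts 3 fell.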
